A study of Mus musculus with 12 samples.

Results

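Clustered replication histone genes were followed across GFP+ cells and CD11b+ phagocytes of mouse brain, from RasV12 tumors and from control cerebellum. The genes were taken as the rows of the deposited normalized count table whose symbol starts with Hist1h, Hist2h, Hist3h or Hist4h and whose value reached 10 in at least 3 of the 12 libraries. Of 54547 genes, 69 had such a symbol and 27 of these met the level rule, while 42 did not. Over all genes 29835 met it, as did 945 of 1487 olfactory and vomeronasal receptor genes, which brain cells do not use. Meeting the rule is thus no sign of expression by itself. The 27 genes encode 4 linker histones H1, 3 H2A, 8 H2B, 4 H3 and 8 H4. By name, 21 belong to the Hist1 cluster on chromosome 13, 3 to Hist2 on chromosome 3, 2 to Hist3 on chromosome 11 and 1 to Hist4 on chromosome 6. The members were thus chosen by their normalized counts over all libraries, and their levels are given as a description. The genes just inside the rule, at 10 or more in 3 libraries, were Hist1h1b, Hist1h4n and Hist1h2br, and 6 genes just outside it, among them Hist2h2ac and Hist1h2bj, reached 10 in 2 libraries.

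Each of the 4 groups had 3 libraries. RasV12 GFP+ cells and RasV12 CD11b+ phagocytes came from tumors of Msi1-CreER;RasV12 mice, and Control GFP+ cells and Control CD11b+ phagocytes came from the cerebellum of Msi1-CreER;GFP mice. All mice were of a mixed 129 and C57BL/6 background, and all carried Msi1-CreER, a hormone-inducible Cre recombinase driven by the promoter of Musashi 1, a gene of neural stem and progenitor cells. The sources used here do not give the induction, the age or the origin of the GFP in tumor cells. Genotype and tissue of origin changed together, so their effects cannot be told apart. The labels do not say whether the 3 libraries of a group came from separate animals, so each p-value reflects only how far libraries spread. In the main fit this spread was pooled over all 12 libraries. A p-value for GFP+ cells thus also rests on the spread of CD11b+ libraries, and the reverse. The lowest correlation between libraries of the same group was 0.512 (RasV12 CD11b+), 0.657 (Control CD11b+), 0.812 (Control GFP+) and 0.842 (RasV12 GFP+).

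Canonical histones are made in S phase to package newly replicated DNA: H2A, H2B, H3 and H4 form the core around which DNA is wrapped, and H1 binds the linker between cores. Their messenger RNAs are intronless and usually end just after a short stem-loop that is bound by the stem-loop binding protein Slbp and cut by the U7 particle, so most of them carry no poly(A) tail. Some of these genes can also give longer, polyadenylated transcripts, which are known mainly from differentiated and non-dividing cells.

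The libraries held 2951629 to 34601205 reads assigned to genes, recovered from the step size of the normalized counts. A single read was worth 4.46 and 5.54 normalized counts in RasV12 CD11b+ replicates 1 and 2, the shallowest libraries, and 0.358 to 1.5 in the other 10. The summed level of 9 phagocyte markers was 43480 to 70733 in RasV12 CD11b+ libraries, 136468 to 412698 in Control CD11b+ libraries, 209 to 522 in RasV12 GFP+ libraries and 95.6 to 568 in Control GFP+ libraries, where Itgam, Csf1r, Aif1 and Ly86 were at 0. In bulk RNA from sorted cells, fewer cells of a type and less RNA per cell cannot be told apart.

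The 3′ ends of the genes were read from the reference transcripts, because they set what a read can be counted on. A search for the 16-base stem-loop, with bases allowed to vary in stem and loop, found it in 21 of the 27 genes, at 24 to 54 bases after the stop codon with a median of 32. The following sites show the 4 versions of the stem-loop and a gene that passed the level rule with a short gene model. Capitals mark the stem-loop, and each site is given 5′ to 3′ on the gene's strand of GRCm38.
Hist1h1c (H1, chr13:23739512-23739527, plus strand): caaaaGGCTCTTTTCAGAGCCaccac
Hist1h2bh (H2B, chr13:23542928-23542943, minus strand): ccaaaGGCTCTTTTCAGAGCCactca
Hist1h3f (H3, chr13:23544932-23544947, plus strand): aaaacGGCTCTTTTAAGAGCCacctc
Hist4h4 (H4, chr6:136803998-136804013, minus strand): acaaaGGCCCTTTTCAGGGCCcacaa
Hist2h4 (H4, chr3:96262939-96262954, minus strand): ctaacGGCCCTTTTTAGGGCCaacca
Hist1h4h (H4, chr13:23531458-23531473, plus strand): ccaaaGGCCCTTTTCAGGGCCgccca
The version of Hist1h1c and Hist1h2bh was shared by 12 genes of the H1, H2A, H2B and H3 classes. That of Hist1h3f was shared with Hist1h3e, that of Hist4h4 and Hist1h4h was shared by 5 H4 genes, and that of Hist2h4 was shared with Hist1h4i.

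Most genes that met the level rule had a long annotated 3′ end. Among rows with a stem-loop, 19 of the 22 whose annotated transcript went on for 100 or more bases after it passed the rule, against 2 of the 21 with fewer than 100 bases, namely Hist1h4n and Hist1h4h. Of 24 coding rows without a stem-loop in the annotated transcript, 6 passed, namely Hist1h2bc, Hist2h2be, Hist1h1b, Hist1h2br, Hist1h4a and the testis histone gene Hist1h2ba. The median exon length was 1156 bases in the 27 genes and 478 bases in the coding rows that did not pass. A longer exon collects more reads at the same level, so these counts describe which rows passed and carry no test.

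**Figure D1:**
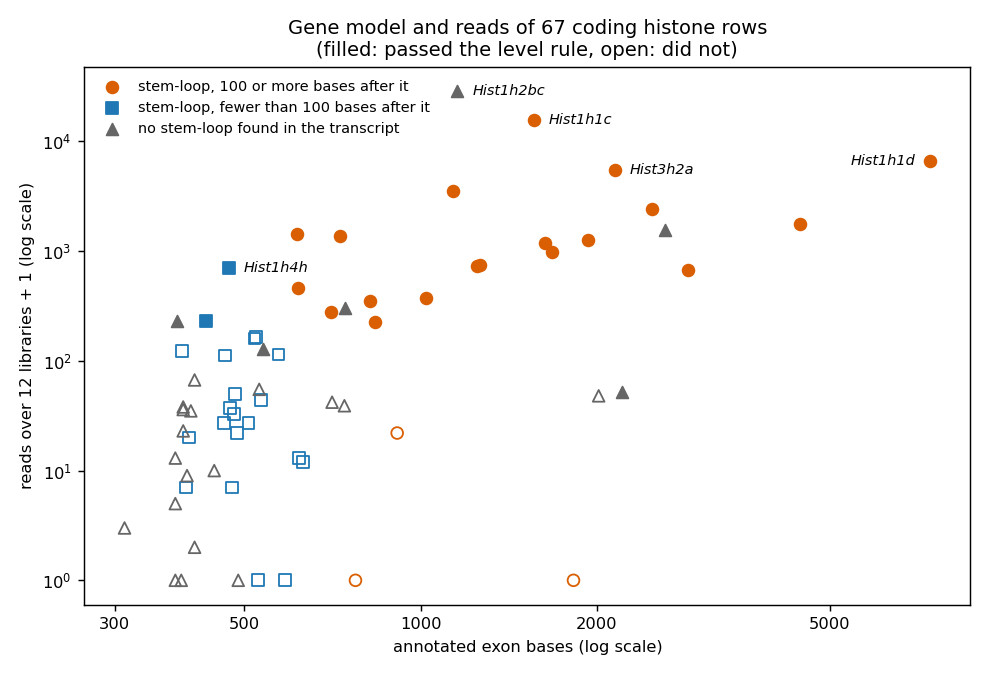
Reads summed over the 12 libraries (log scale) against annotated exon length (log scale) for 67 coding histone rows, with shape and color for the stem-loop class and filled symbols for the 27 rows that met the level rule. Filled circles, with 100 or more annotated bases after the stem-loop, make up 19 of the 27, and Hist1h2bc, without a stem-loop in its transcript, has the most reads.

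Hist1h2bc, an H2B gene, has a spliced gene model without a stem-loop. Its exons lie at chr13:23684199-23684621 and chr13:23692176-23692908 on the plus strand of GRCm38. The upstream exon holds the coding sequence and ends 9 bases after the stop codon, and the transcript is then spliced over 7554 bases to an exon made of 3′ UTR. Hist1h2ac, an H2A gene on the minus strand, starts 250 bases from Hist1h2bc, and the stretch between their starts is shown because it lies beside the gene with the most reads. The stretch before Hist1h1c is shown because this gene followed Hist1h2bc in level in GFP+ cells. Capitals mark motifs known from histone promoters, on either strand. These are the CCAAT box, the TATA box as TATAAA, the octamer as ATTTGCAT and the H1 box as AAACACA. Both stretches are from RefSeq (GRCm38.p6) and end at the base before the start of Hist1h2ac and of Hist1h1c.
Hist1h2ac (chr13:23683960-23684198, minus strand): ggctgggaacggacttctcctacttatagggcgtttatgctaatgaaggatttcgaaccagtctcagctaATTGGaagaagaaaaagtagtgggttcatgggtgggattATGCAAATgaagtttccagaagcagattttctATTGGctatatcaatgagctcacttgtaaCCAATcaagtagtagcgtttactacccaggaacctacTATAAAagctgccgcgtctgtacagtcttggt
Hist1h1c (chr13:23738557-23738806, plus strand): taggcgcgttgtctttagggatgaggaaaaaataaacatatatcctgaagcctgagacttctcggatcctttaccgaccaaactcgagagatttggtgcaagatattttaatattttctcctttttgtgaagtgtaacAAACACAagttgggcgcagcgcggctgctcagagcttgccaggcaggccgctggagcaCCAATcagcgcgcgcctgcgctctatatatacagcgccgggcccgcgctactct
The stretch beside Hist1h2ac held 3 CCAAT motifs, 1 TATAAA and 1 octamer, and that of Hist1h1c held 1 CCAAT and 1 H1 box. Over the 23 genes with a RefSeq promoter of 250 bases before to 50 after the start, CCAAT was found in 82.6% against 37.4% of all 32851 promoters, TATAAA in 56.5% against 13.6%, ATTTGCAT in 21.7% against 1.74% and AAACACA in 21.7% against 7.18%, on both strands and without regard to overlap between motifs. A match describes the letters and not a site in use.

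Reads on genes that brain cells do not use differed between the groups, and these values are to be read beside every level below. Over 1487 olfactory and vomeronasal receptor genes, the mean normalized count per kb of exon was 3.37, 2.36 and 1.84 in RasV12 GFP+ libraries and 0.840, 1.38 and 2.0 in Control GFP+ libraries. It was 78.6, 90.4 and 58.9 in RasV12 CD11b+ libraries and 4.62, 37.6 and 4.75 in Control CD11b+ libraries, so all 3 tumor phagocyte libraries and Control CD11b+ replicate 2 stood apart. The histone genes together had 124, 75 and 70.0 per kb in RasV12 GFP+ libraries and 177, 189 and 163 in Control GFP+ libraries. They had 135, 160 and 106 per kb in RasV12 CD11b+ libraries and 26.1, 102 and 59.8 in Control CD11b+ libraries. Of the 27 genes, 19 were above the receptor mean in every RasV12 GFP+ library and 11 in every Control GFP+ library. This held for 5 in every RasV12 CD11b+ library and for 12 in every Control CD11b+ library. The 42 rows below the level rule had 2.67, 3.31 and 17.8 per kb in RasV12 CD11b+ libraries, under the receptor mean of the same libraries. These 42 rows were set apart by their low counts, while the receptor genes were not filtered, so low values are built into that choice. Likewise the 27 genes were chosen for their counts, so how many exceed the receptor mean is a description and no test.

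**Figure D2:**
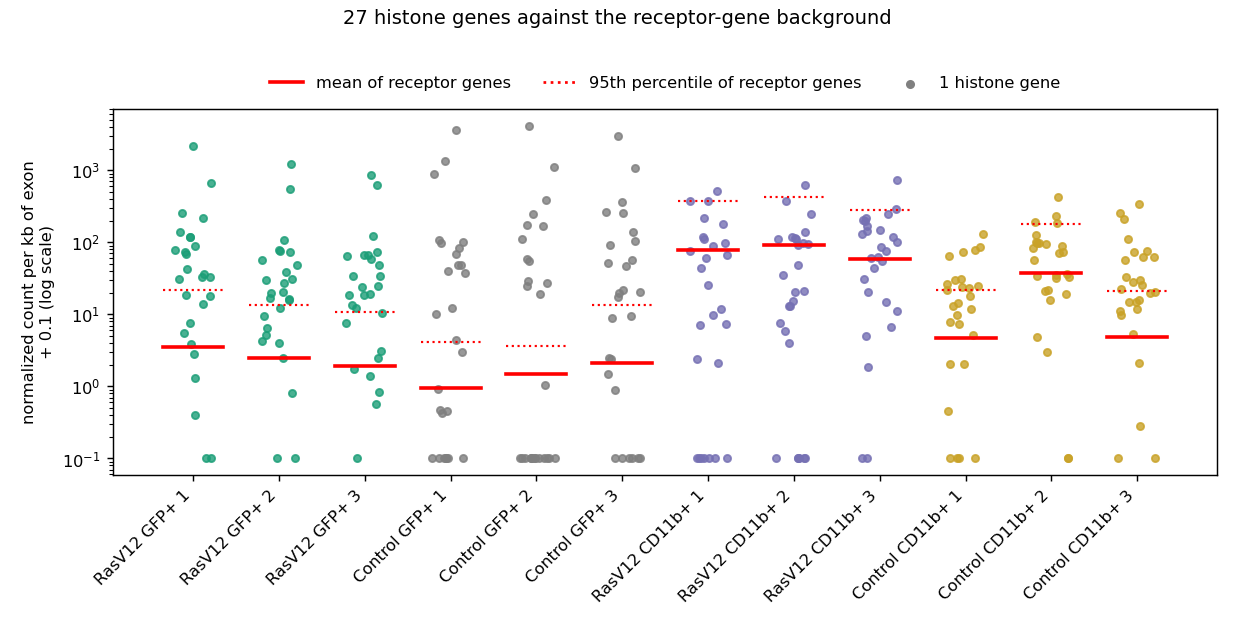
Normalized count per kb of exon plus 0.1 (log scale) of each of the 27 histone genes in each library, with the mean (solid red) and the 95th percentile (dotted red) of the receptor genes. In GFP+ libraries 13 to 18 histone genes lie above the dotted line, in RasV12 CD11b+ libraries 1 to 3, and in Control CD11b+ libraries 4 to 14.

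A pair of genes held most of the histone reads in GFP+ cells and a smaller share in phagocytes. Summed over the 27 genes, the normalized count was 5434, 3278 and 3061 in RasV12 GFP+ libraries and 7734, 8247 and 7131 in Control GFP+ libraries. The sums were 5900, 6995 and 4624 in RasV12 CD11b+ libraries and 1141, 4469 and 2611 in Control CD11b+ libraries. Hist1h2bc and Hist1h1c together made up 64.1% to 69.4% of the sum in RasV12 GFP+ libraries, 71.4% to 80.6% in Control GFP+ libraries, 4.51% to 13.7% in RasV12 CD11b+ libraries and 11.5% to 24.3% in Control CD11b+ libraries. The H1 gene Hist1h1d and the H4 gene Hist1h4d together made up 41.1% to 72.1% in RasV12 CD11b+ libraries and 10.7% to 49.5% in Control CD11b+ libraries. In Control CD11b+ replicates 1 and 3, where the receptor background was low, this share was 22.7% and 10.7%, below the 24.3% and 24.1% of Hist1h2bc and Hist1h1c.

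The genes were also set in order per length, as FPKM. Hist1h2bc led in RasV12 GFP+ cells at 85.3 ± 41.0 FPKM and in Control GFP+ cells at 214 ± 36.8 FPKM (SD, n = 3 each). Hist1h1c followed at 36.8 ± 3.82 FPKM in RasV12 GFP+ cells and 70.9 ± 8.22 FPKM in Control GFP+ cells. Hist1h4d led in RasV12 CD11b+ cells at 32.3 ± 11.2 FPKM. In Control CD11b+ cells its mean was 11.3 ± 12 FPKM, which rested on replicate 2, with 5.2, 25.1 and 3.7 FPKM in replicates 1, 2 and 3. Hist1h1c had 7.8 FPKM in replicate 1 and 12.8 FPKM in replicate 3, above Hist1h4d in both, so no gene led throughout. The ranges of neighbors in the order overlapped: in RasV12 CD11b+ cells Hist1h4d had 22.2 to 44.3 FPKM and Hist1h1d 8.60 to 37.4 FPKM.

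**Figure D3:**
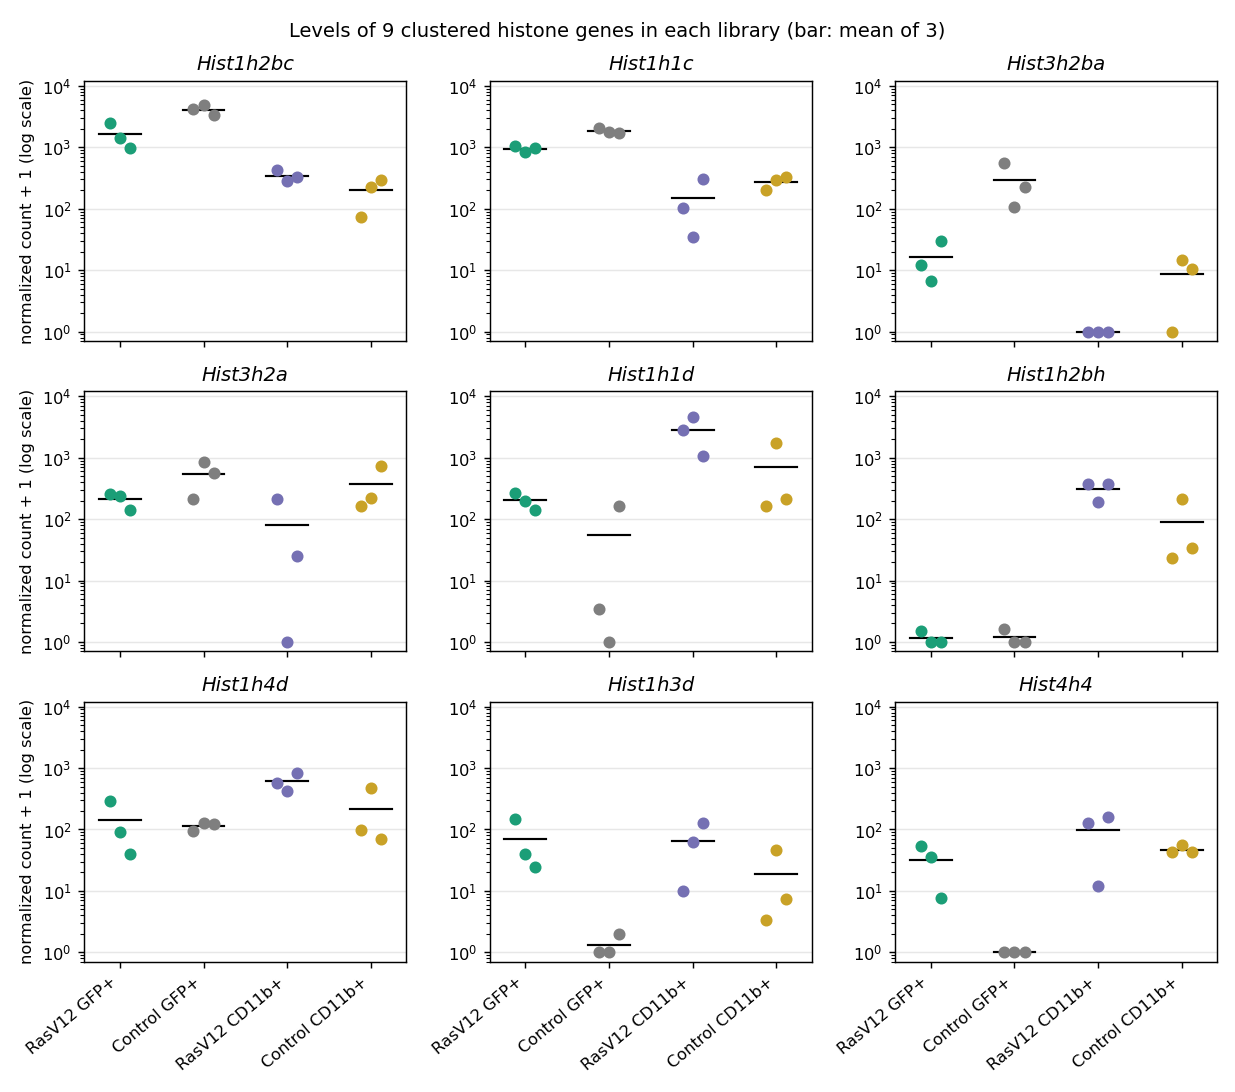
Normalized count plus 1 (log scale) of 9 histone genes in each library of RasV12 GFP+, Control GFP+, RasV12 CD11b+ and Control CD11b+ cells, with a bar at the mean of 3. Hist1h2bc and Hist1h1c are above 840 in all 6 GFP+ libraries and below 430 in all 6 CD11b+ libraries, and Hist1h2bh is at 0.6 or less in all 6 GFP+ libraries.

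The comparison of RasV12 GFP+ with Control GFP+ cells asked how tumor cells differ from the control cells that carry the same Cre. In RasV12 GFP+ cells the H3 gene Hist1h3d and the H4 gene Hist4h4 rose, and no gene fell past the threshold. That is 2 of 27, or 7.41%, beside 6.79% of all 29835 genes tested (limma on log2(normalized count + 1), Benjamini-Hochberg adjusted p below 0.05). The 2 higher calls stand beside 4.14% of all genes higher and the absence of lower calls beside 2.65% lower. The median log2 fold change was 0.15 over the 27 genes and 0.56 over all genes tested.

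Hist1h3d had 146, 39.0 and 23.2 normalized counts in RasV12 GFP+ libraries and 0, 0 and 1.0 in Control GFP+ libraries. It was present in all 3 tumor libraries and rested on 1 read in the control libraries. The pooled ratio was 265, with a counting interval of 47.3 to 10480 (95%, exact binomial), and the fitted log2 fold change was 5.37 ± 1.37 (SE, adjusted p = 0.0309). Hist4h4 had 51.9, 34.4 and 6.8 normalized counts in RasV12 GFP+ libraries and none in any Control GFP+ library. With 194 reads against a floor of 3 reads over the control group it was at least 37.5-fold higher, with a fitted log2 fold change of 4.61 ± 1.25 (adjusted p = 0.0414) that depends on the added 1. Neither call held throughout: Hist1h3d passed in 12 of 22 alternatives, with adjusted p up to 0.134, and Hist4h4 in 9 of 22, with adjusted p up to 0.290. Both calls ended with background subtraction. Leaving out any one of the 6 GFP+ libraries ended the call of Hist1h3d. For Hist4h4 this held for 5 of the 6 (all but RasV12 GFP+ replicate 3), and for Control CD11b+ replicate 1 or 3.

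Hist1h2ba, which encodes a testis H2B, had 34.3, 28.1 and 22.2 normalized counts in RasV12 GFP+ libraries and none in any Control GFP+ library. At 187 reads it was at least 36.1-fold higher against the floor of 3 reads, and it missed the threshold with a log2 fold change of 4.85 ± 1.46 (adjusted p = 0.0655). Hist1h2ba passed in 5 of 22 alternatives. It met the level rule only through RasV12 GFP+ libraries, so a difference from Control GFP+ cells is partly built into its choice. Its exon is 384 bases long and 61.8% of its 50-base stretches are unique among the reference transcripts.

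The genes with the most reads had lower values in RasV12 GFP+ cells without passing the test. Hist1h2bc had 2519, 1429 and 984 normalized counts in RasV12 GFP+ libraries and 4146, 4813 and 3396 in Control GFP+ libraries. Hist1h1c had 1043, 847 and 977 in RasV12 GFP+ libraries and 2088, 1752 and 1694 in Control GFP+ libraries. For both genes every tumor library was below every control library, and the log2 fold changes were −1.42 ± 0.58 (adjusted p = 0.192) for Hist1h2bc and −0.95 ± 0.71 (adjusted p = 0.551) for Hist1h1c. Fitted on the 6 GFP+ libraries without the others, Hist1h1c passed as lower with an adjusted p of 0.0269. The H2B gene Hist3h2ba had 11.3, 5.7 and 29.3 in RasV12 GFP+ libraries and 548, 105 and 226 in Control GFP+ libraries, with a log2 fold change of −4.12 ± 1.28 (adjusted p = 0.0747). These groups did not overlap either, and Hist3h2ba passed in 3 of 22 alternatives. In all, 7 of the 27 genes had groups that did not overlap, which is to be read beside 28.2% of all genes tested.

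Hist1h1d had 265, 199 and 140 normalized counts in RasV12 GFP+ libraries and 2.4, 0 and 163 in Control GFP+ libraries. Control GFP+ replicate 3 lay within the tumor range, so the groups overlapped (log2 fold change 4.57 ± 1.53, adjusted p = 0.0983). Without that library Hist1h1d passed as higher (adjusted p = 0.00491).

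Summed by class, H2B genes summed to 1800 ± 724 in RasV12 GFP+ libraries and 4647 ± 552 in Control GFP+ libraries (SD, n = 3 each), and H1 genes to 1225 ± 125 in RasV12 GFP+ libraries and 1950 ± 191 in Control GFP+ libraries. Without Hist1h2bc and Hist1h1c the other 25 genes summed to 1325 ± 477 in RasV12 GFP+ libraries and 1742 ± 275 in Control GFP+ libraries. H3 genes summed to 290.9, 75.2 and 44.7 in RasV12 GFP+ libraries and 49.3, 49.8 and 50.8 in Control GFP+ libraries, and H4 genes to 431 ± 285 in RasV12 GFP+ libraries and 358 ± 155 in Control GFP+ libraries. RasV12 GFP+ replicates 1 and 2 were above the controls in the H3 sum and replicate 3 was below them.

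**Figure D4:**
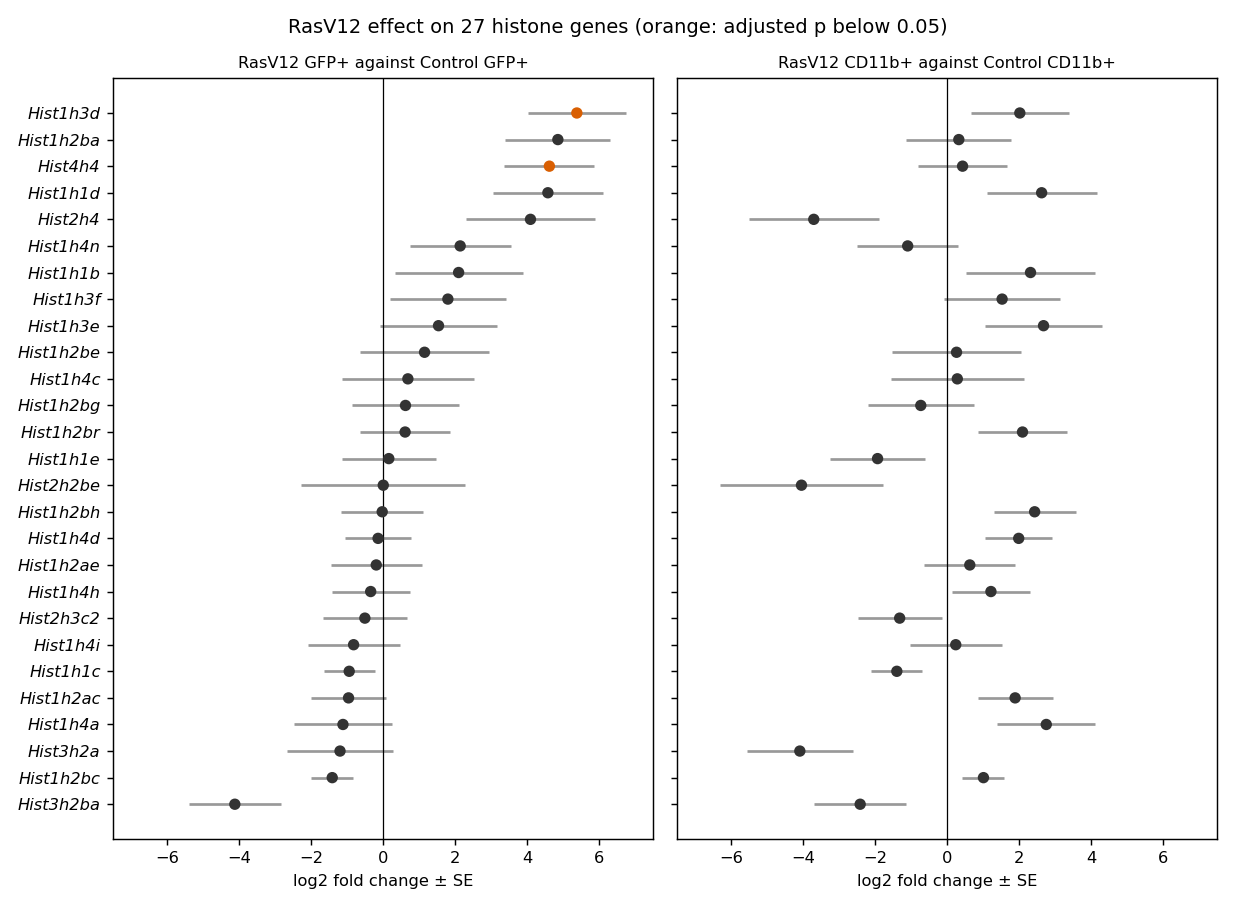
Log2 fold change with SE of the 27 histone genes in RasV12 GFP+ against Control GFP+ cells (left) and in RasV12 CD11b+ against Control CD11b+ cells (right), in the order of the left panel. Hist1h3d and Hist4h4 passed adjusted p below 0.05 on the left, and no gene passed on the right.

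Markers of other cell types moved with this comparison, and their part in the histone values was not tested. In RasV12 GFP+ cells 6 of 6 oligodendrocyte, 5 of 6 neuronal, 3 of 6 astrocyte, 2 of 5 endothelial and 4 of 5 erythroid markers were lower, and 1 of 9 phagocyte markers was higher. Of all genes tested, 2.65% were lower and 4.14% higher. The oligodendrocyte markers summed to 2842 to 17698 in RasV12 GFP+ libraries and 945812 to 1588020 in Control GFP+ libraries. The neuronal sum was 1321 to 2152 in RasV12 GFP+ libraries and 47651 to 67070 in Control GFP+ libraries, and the erythroid sum was 82.9 to 507 in RasV12 GFP+ libraries and 8894 to 774410 in Control GFP+ libraries. The share of reads on mitochondrial genes also moved, at 1.53% to 2.62% in RasV12 GFP+ libraries and 20.1% to 30.4% in Control GFP+ libraries. It was 13.3% to 17.7% in RasV12 CD11b+ libraries and 0.630% to 2.54% in Control CD11b+ libraries, and its part in any histone value was not tested. None of these markers was at 0 in all libraries of either group, apart from the 4 phagocyte markers named above.

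The comparison of CD11b+ with GFP+ cells asked which histone genes mark the sorted fractions of the same tissue. In RasV12 tumors the H2B gene Hist1h2bh and Hist1h4d rose in CD11b+ cells, while Hist1h1c, Hist1h2bc, Hist3h2ba, the H3 gene Hist2h3c2 and the H4 gene Hist2h4 fell. In controls Hist1h2bh, Hist4h4 and Hist1h1d rose in CD11b+ cells, while Hist1h2bc, Hist1h1c, Hist3h2ba, Hist2h3c2 and Hist1h4h fell. These calls are 7 of 27 (25.9%) in tumors, beside 40.1% of all genes tested, and 8 of 27 (29.6%) in controls, beside 26.2%. By direction, 29.8% of all genes were higher and 10.2% lower in tumors, and 19.3% were higher and 6.91% lower in controls. The median log2 fold change was 0.47 over the 27 genes and 1.79 over all genes in tumors, and 1.74 over the 27 genes and 1.80 over all genes in controls. With receptor background subtracted, 1 histone gene was higher and 8 were lower in tumors and 1 was higher and 5 were lower in controls, and with upper-quartile scaling 1 was higher and 6 were lower in tumors.

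Hist1h2bh was close to silent in GFP+ cells and present in phagocytes. It had 370, 188 and 366 normalized counts in RasV12 CD11b+ libraries and 0.5, 0 and 0 in RasV12 GFP+ libraries. It had 21.9, 211 and 33.4 in Control CD11b+ libraries and 0.6, 0 and 0 in Control GFP+ libraries. Each GFP+ group held 1 read, and no CD11b+ library came near that level. The log2 fold change was 8.01 ± 1.1 in tumors (adjusted p = 0.000559) and 5.56 ± 1.1 in controls (adjusted p = 0.00426), and the pooled ratios were 2372 (counting interval 424 to 93830) in tumors and 226.7 (40.3 to 8989) in controls. Hist1h2bh met the level rule through CD11b+ libraries alone, so a difference from GFP+ cells is built into its choice and the test is no independent support. Per kb it was above the receptor mean in all 6 CD11b+ libraries, and above 75.5% to 92.3% of the receptor genes in RasV12 CD11b+ libraries and 89.2% to 94.6% of them in Control CD11b+ libraries, so single receptor genes reached its level.

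Hist1h2bc and Hist1h1c were the counterpart. Hist1h2bc had 428, 282 and 330 normalized counts in RasV12 CD11b+ libraries, against the 984 to 2519 given above for RasV12 GFP+ libraries. It had 73.7, 223 and 298 in Control CD11b+ libraries, against 3396 to 4813 in Control GFP+ libraries. Neither pair of groups overlapped, with log2 fold changes of −2.15 ± 0.58 in tumors (adjusted p = 0.0118) and −4.58 ± 0.58 in controls (adjusted p = 0.000199). Hist1h1c had 103, 33.2 and 303 in RasV12 CD11b+ libraries and 203, 292 and 333 in Control CD11b+ libraries. Its log2 fold changes were −3.22 ± 0.71 in tumors (adjusted p = 0.00462) and −2.76 ± 0.71 in controls (adjusted p = 0.0133). In tumors both calls ended when RasV12 CD11b+ replicates 1 and 2 were left out, with the remaining library assumed to vary like the others (adjusted p = 0.0556 for Hist1h1c and 0.0762 for Hist1h2bc), and that of Hist1h2bc also ended without RasV12 GFP+ replicate 1. In controls Hist1h2bc passed in 22 of 22 alternatives, and Hist1h1c lost its call with background subtraction (adjusted p = 0.332).

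Hist3h2ba had no read in any RasV12 CD11b+ library and 0, 13.5 and 9.6 normalized counts in Control CD11b+ libraries. Against the 117 reads of RasV12 GFP+ libraries and a floor of 3 reads over the CD11b+ group it was at least 12-fold lower in tumor phagocytes. The log2 fold change was −3.76 ± 1.28 in tumors (adjusted p = 0.0327) and −5.46 ± 1.28 in controls (adjusted p = 0.00870). It passed in 14 of 22 alternatives in tumors and in 22 of 22 in controls. The tumor call ended without any one RasV12 CD11b+ library, without RasV12 GFP+ replicate 1 or 3, with a pseudocount of 10 and without the filter. Hist2h3c2, for which 36.5% of 50-base stretches are unique, had 0, 0 and 1.8 in RasV12 CD11b+ libraries and 33.9, 30.4 and 19.0 in RasV12 GFP+ libraries. It had 0, 3.0 and 10 in Control CD11b+ libraries and 49.3, 24.9 and 47.8 in Control GFP+ libraries. Like Hist3h2ba, Hist2h3c2 met the level rule only through GFP+ libraries. A difference from CD11b+ cells is thus partly built into the choice of both genes. Every CD11b+ library was below every GFP+ library for Hist2h3c2, with log2 fold changes of −4.31 ± 1.17 in tumors (adjusted p = 0.0119) and −3.50 ± 1.17 in controls (adjusted p = 0.0418, held in 9 of 22 alternatives).

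The remaining calls were each made in 1 of the tissues, and the test of that difference, given below, passed for none of these genes in the limma fit. Hist1h4d had 579, 421 and 840 normalized counts in RasV12 CD11b+ libraries and 294, 90.0 and 39.0 in RasV12 GFP+ libraries (log2 fold change 2.53 ± 0.93, adjusted p = 0.0441, held in 8 of 22 alternatives). Hist2h4 had 0, 0 and 24.0 in RasV12 CD11b+ libraries and 227.2, 79.7 and 40.4 in RasV12 GFP+ libraries (−4.97 ± 1.80, adjusted p = 0.0422, held in 9 of 22). Leaving out the low-depth RasV12 CD11b+ replicates 1 and 2 ended both calls, along with those of Hist3h2ba and Hist2h3c2.

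In controls Hist4h4 had 41.5, 53.9 and 42.1 in Control CD11b+ libraries and none in Control GFP+ libraries, which is at least 57.1-fold higher against the floor (log2 fold change 5.54 ± 1.25, adjusted p = 0.00698). It did not pass with background subtraction (adjusted p = 0.179) or with 10 added before the logarithm. Hist4h4 met the level rule only through CD11b+ libraries, and Hist1h4h only through GFP+ libraries. A difference between the fractions is thus partly built into the choice of both genes. Hist1h4h had 2.4, 7.5 and 6.9 in Control CD11b+ libraries and 51.1, 78.6 and 65.1 in Control GFP+ libraries (−3.41 ± 1.08, adjusted p = 0.0344, held in 14 of 22). Hist1h1d had 162, 1735 and 210 in Control CD11b+ libraries and 2.4, 0 and 163 in Control GFP+ libraries, so that Control CD11b+ replicate 1 lay just below Control GFP+ replicate 3 (5.57 ± 1.53, adjusted p = 0.0182). This call ended without Control GFP+ replicate 1 or 2 or Control CD11b+ replicate 2, and with background subtraction (adjusted p = 0.0682).

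Cell type markers moved with both comparisons, and their part in the histone values was not tested. All 9 phagocyte markers were higher in CD11b+ cells in tumors and in controls. Of all genes tested, 29.8% were higher and 10.2% lower in tumors, and 19.3% were higher and 6.91% lower in controls. In Control CD11b+ cells 6 of 6 oligodendrocyte, 6 of 6 astrocyte, 5 of 6 neuronal, 4 of 5 erythroid and 2 of 5 endothelial markers were lower. In RasV12 CD11b+ against RasV12 GFP+ cells 2 of 5 endothelial markers and 1 of 6 neuronal markers were higher, and 2 of 6 astrocyte, 1 of 6 oligodendrocyte and 1 of 5 endothelial markers were lower.

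The tumor and control comparisons set separate libraries against each other, but both use the spread pooled over all 12 libraries and the same level rule. Their calls are thus not independent. The same 5 genes, Hist1h2bh, Hist1h2bc, Hist1h1c, Hist3h2ba and Hist2h3c2, were called in the same direction in both, which is 71.4% of the 7 calls in tumors and 62.5% of the 8 calls in controls. Over all genes tested, 14.4% were called in the same direction in both, which is 36% of all calls in tumors and 55.1% of all calls in controls. Of the 5, Hist1h2bh met the level rule only through CD11b+ libraries, and Hist3h2ba and Hist2h3c2 only through GFP+ libraries. For these genes a shared call is partly built into the choice. Groups did not overlap for 13 of the 27 genes in tumors, beside 50.8% of all genes tested, and for 11 in controls, beside 45.6%. Among the 13, Hist1h2br, Hist1h2bh and Hist1h2ae met the level rule only through CD11b+ libraries. Hist2h3c2, Hist3h2ba, Hist1h4h and Hist1h2ba met it only through GFP+ libraries. Among the 11, Hist4h4, Hist1h4n, Hist1h2bh and Hist1h2ae met it only through CD11b+ libraries, and Hist2h3c2, Hist3h2ba and Hist1h4h only through GFP+ libraries. Each of these genes was higher in the fraction through which it passed. Their part in these counts is thus built into the choice of genes.

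**Figure D5:**
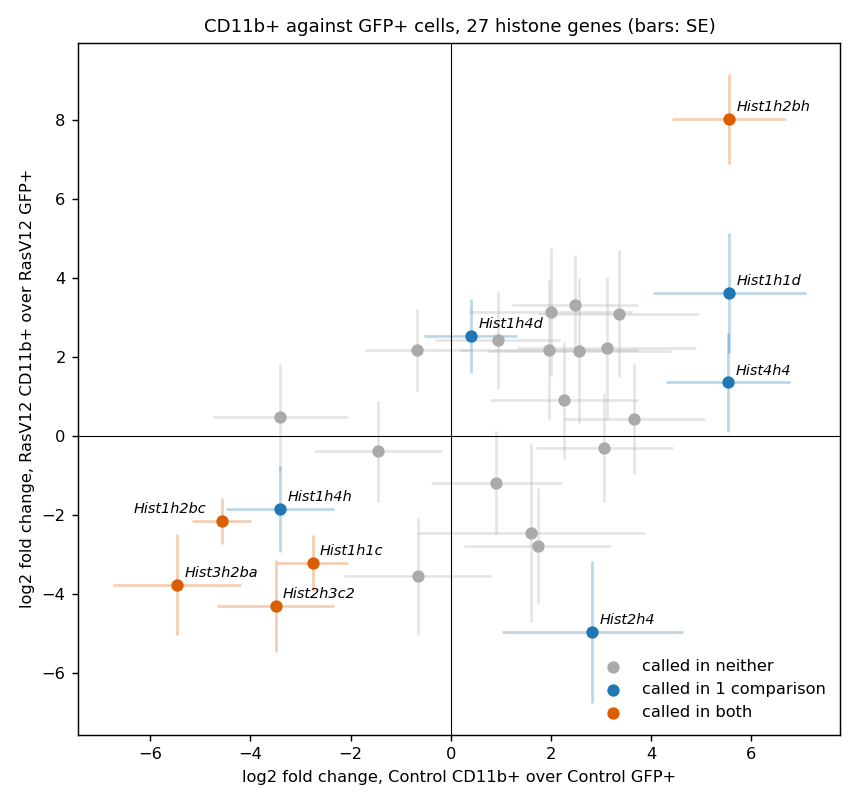
Log2 fold change of CD11b+ over GFP+ cells in RasV12 tumors (vertical) against that in controls (horizontal) for the 27 histone genes, with SE bars and color for the number of comparisons called. The 5 genes called in both are Hist1h2bh at the upper right and Hist1h2bc, Hist1h1c, Hist3h2ba and Hist2h3c2 at the lower left.

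In phagocytes the comparison of RasV12 CD11b+ with Control CD11b+ cells called none of the 27 genes, beside 5.36% of all genes tested (2.97% higher and 2.39% lower). One gene, Hist3h2a, had an unadjusted p below 0.05, and edgeR and DESeq2 on the recovered reads also called 0. The median log2 fold change was 0.42 over the 27 genes and 0.74 over all genes. Hist3h2a, an H2A gene, had 209, 0 and 24.0 normalized counts in RasV12 CD11b+ libraries and 165, 217 and 725 in Control CD11b+ libraries (−4.10 ± 1.48, adjusted p = 0.109). Its values overlapped between the groups, and its exons share bases with Trim17 and Gm44313, so reads of these genes may be mixed. With receptor background subtracted, or without RasV12 CD11b+ replicate 1, it passed as lower. Without RasV12 CD11b+ replicate 3 Hist1h1c passed as lower (adjusted p = 0.0482), and without Control CD11b+ replicate 2 Hist1h2bh passed as higher (adjusted p = 0.0356).

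Hist1h1d had the highest count of the 27 genes in each tumor phagocyte library, with 2799, 4624 and 1062 in RasV12 CD11b+ libraries and 162, 1735 and 210 in Control CD11b+ libraries. The spread within both groups was wide and they overlapped (log2 fold change 2.62 ± 1.53, adjusted p = 0.281). Hist1h1d is annotated as a single exon of 7425 bases at chr13:23553262-23560686 (plus strand), of which 4884 bases lie after the stem-loop. Per kb it had 377, 623 and 143 in RasV12 CD11b+ libraries and 21.8, 234 and 28.3 in Control CD11b+ libraries, and the high libraries were those with the high receptor means. In RasV12 CD11b+ libraries it exceeded 87.8% to 97.6% of the receptor genes. Hist1h4d had 98.0, 476 and 69.9 in Control CD11b+ libraries, and replicate 2 among them lay within the tumor range given above (1.98 ± 0.93, adjusted p = 0.192).

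Hist1h2ac was the only one of the 27 genes whose phagocyte groups did not overlap, beside 27.6% of all genes tested. It had 450, 277 and 291 in RasV12 CD11b+ libraries and 60.4, 210 and 55.6 in Control CD11b+ libraries (1.88 ± 1.04, adjusted p = 0.258). Across the short stretch printed above, its neighbor Hist1h2bc had a log2 fold change of 1.0 ± 0.58 in the same comparison (adjusted p = 0.280), and in GFP+ cells the values were −0.97 ± 1.04 for Hist1h2ac and −1.42 ± 0.58 for Hist1h2bc. In Control CD11b+ against Control GFP+ cells Hist1h2bc fell, while Hist1h2ac had a log2 fold change of −0.67 ± 1.04 (adjusted p = 0.631). The difference between the neighbors was not tested. Hist1h2ac shares exonic bases with Gm24991 and Gm44350.

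The RasV12 effect was also compared between the cell types, as the effect in CD11b+ cells minus that in GFP+ cells. None of the 27 genes passed, beside 4.4% of all genes (2.06% higher and 2.34% lower), and 4 had an unadjusted p below 0.05. By edgeR 0 passed and by DESeq2 1 passed, Hist4h4 (adjusted p = 0.0207). Hist2h4 had the smallest adjusted p in the limma fit. It had 227.2, 79.7 and 40.4 normalized counts in RasV12 GFP+ libraries, 0.6, 96.2 and 0 in Control GFP+ libraries, 0, 0 and 24.0 in RasV12 CD11b+ libraries and 15.7, 34.4 and 93.8 in Control CD11b+ libraries. The difference was −7.80 ± 2.55 on the log2 scale (adjusted p = 0.104), and it passed without Control GFP+ replicate 2 or without RasV12 CD11b+ replicate 3. For Hist1h2bc the difference was 2.42 ± 0.82 (adjusted p = 0.119). The 2 effects are thus not shown to differ for any histone gene in this fit.

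Other members had low or scattered values. Hist1h1b, an H1 gene, had 0, 11.5 and 8.9 normalized counts in RasV12 GFP+ libraries and 0.6, 0 and 0 in Control GFP+ libraries. It had 0, 88.6 and 125.5 in RasV12 CD11b+ libraries and 8.6, 0 and 8.7 in Control CD11b+ libraries, and it was called in none of the 5 comparisons. Hist1h4a had no read in any Control CD11b+ library and 0, 11.1 and 24.0 in RasV12 CD11b+ libraries, which is at least 28.7-fold higher against the floor of 3 reads but did not pass the test (2.75 ± 1.36, adjusted p = 0.211). Per kb Hist1h4a had 0, 20.6 and 44.5 in RasV12 CD11b+ libraries, below the receptor mean in all 3. Hist2h2be, an H2B gene, had 7.2, 51.0 and 87.6 in RasV12 GFP+ libraries and 256, 0 and 147 in Control GFP+ libraries. These 3 genes show values of 0 beside high values within a group. The other H3 and H4 genes ranged widely: Hist1h3e had 0.4 to 57.4 in RasV12 GFP+ libraries and 0 to 2.0 in Control GFP+ libraries, and Hist1h3f had 2.1 to 53.3 in RasV12 GFP+ libraries and 0 to 24.1 in Control GFP+ libraries. Hist1h4i had 41.8 to 88.0 in RasV12 GFP+ libraries and 35.6 to 186.2 in Control GFP+ libraries. Hist1h4c had 0 to 105.1 in RasV12 CD11b+ libraries and 6.3 to 26.9 in Control CD11b+ libraries, and the H2B gene Hist1h2bg had 4.5 to 60.9 in RasV12 CD11b+ libraries and 14.9 to 69.5 in Control CD11b+ libraries. None of these 5 genes was called in any comparison.

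Several genes cannot be counted apart from a neighbor or a copy. The annotated exons of the H1 gene Hist1h1e and the H2B gene Hist1h2be share 816 bases with each other or with Gm11398, and neither gene was called in any comparison. For Hist1h4n 14.4% and for Hist1h2br 11.5% of 50-base stretches are unique, and their values are uncertain. Among all 69 rows, 7 had no read in any library, and 5 of these, Hist2h2aa1, Hist2h2aa2, Hist2h3c1, Hist2h3b and Hist2h2bb, have no unique 50-base stretch. The library type does not mark strand, so reads of antisense partners, such as Gm44394 at Hist1h2ae, were not separable.

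Genes that act with histones were described as lists. Of 28 genes of DNA replication and S phase, 5 were higher in RasV12 GFP+ cells and none was lower. Of all genes tested, 4.14% were higher and 2.65% lower. The list median was 2.93 on the log2 scale. Among the 5 were Uhrf1, which reads hemimethylated DNA at forks, the cyclin gene Ccna2, the thymidylate synthase gene Tyms and the primase gene Prim2. Uhrf1 had 188, 160 and 134 normalized counts in RasV12 GFP+ libraries and none in Control GFP+ libraries (adjusted p = 0.000737). In RasV12 CD11b+ against Control CD11b+ cells none of the 28 passed, beside 5.36% of all genes tested, with a list median of 1.17. In Control CD11b+ against Control GFP+ cells 9 of the 28 were higher and none was lower, with a list median of 2.82. Of all genes tested, 19.3% were higher there. These 9 S phase genes thus stood lower in Control GFP+ cells than in control phagocytes, and 19 were not called. The median over all genes tested was 1.80 in this comparison. The receptor mean was 37.6 per kb in Control CD11b+ replicate 2, and the part of background in the S phase values was not tested. In RasV12 CD11b+ against RasV12 GFP+ cells 2 of the 28 were higher and 1 was lower, with a list median of 1.0. Of all genes tested, 29.8% were higher and 10.2% lower there, with a median of 1.79. For RasV12 against control, the medians over all genes tested were 0.56 in GFP+ cells and 0.74 in CD11b+ cells. Those of the 27 histone genes were 0.15 in GFP+ cells and 0.42 in CD11b+ cells. Most canonical histone messages carry no poly(A) tail, and how far the libraries captured them was not tested. The histone medians are thus not a measure of all histone messages beside the S phase list.

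Of 14 histone chaperone genes, Asf1b, which hands H3 and H4 to newly replicated DNA, was higher in RasV12 GFP+ cells, with 202, 256 and 211 normalized counts in RasV12 GFP+ libraries and 0, 0 and 12.2 in Control GFP+ libraries (6.56 ± 1.1, adjusted p = 0.00364). This 1 of 14 stands beside 4.14% of all genes tested higher in GFP+ cells. None of the 14 passed in RasV12 CD11b+ against Control CD11b+ cells, beside 5.36% of all genes tested. The list medians were 0.43 in GFP+ cells and −0.36 in CD11b+ cells. Of 11 replacement histone genes, which are expressed outside S phase, the centromere gene Cenpa alone was higher in RasV12 GFP+ cells, with 145, 221 and 408 in RasV12 GFP+ libraries and 0, 0 and 82.4 in Control GFP+ libraries (5.76 ± 1.51, adjusted p = 0.0357). Cenpa is itself made late in the cell cycle. As 1 of 11 genes, it stands beside 4.14% of all genes tested higher in GFP+ cells. None of the 11 passed in CD11b+ cells, beside 5.36% of all genes tested. The list medians were −0.65 in GFP+ cells and −0.68 in CD11b+ cells.

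Of 14 genes for processing and decay of histone messages, 1 was lower in each RasV12 comparison. This stands beside 2.65% of all genes tested lower in GFP+ cells and 2.39% in CD11b+ cells. Lsm11, a protein of the U7 particle, had 89.4, 65.9 and 12.2 normalized counts in RasV12 GFP+ libraries and 260, 391 and 548 in Control GFP+ libraries (−3.15 ± 0.85, adjusted p = 0.0413). Upf1, a helicase of message decay, had 17.8, 0 and 56.5 in RasV12 CD11b+ libraries and 1097, 260 and 1830 in Control CD11b+ libraries (−6.30 ± 1.43, adjusted p = 0.0263). RasV12 CD11b+ replicates 1 and 2 were shallow, at 4.46 and 5.54 normalized counts per read. Calls of the list genes were not followed through the alternatives. Slbp, which binds the stem-loops printed above, had 993, 869 and 796 in RasV12 GFP+ libraries and 385, 237 and 272 in Control GFP+ libraries and did not pass (1.59 ± 0.66, adjusted p = 0.195). The groups of Slbp did not overlap. The list medians were 0.26 in GFP+ cells and −0.68 in CD11b+ cells.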

How the data were processed

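RNA of sorted cells was sequenced in 12 libraries. Per the labels' protocols, a SMARTer kit for small RNA amounts gave the cDNA, and Nextera XT the sequencing libraries. The submitters' processing notes name HISAT2 2.1.0, DESeq2 1.20.0, Subread 1.6.2 with featureCounts, bcl2fastq 2.17.1.14 and GRCm38.p6, without roles. The table deposited by the authors holds normalized counts, treated as a signal scaled per library, and a second table deposited by the authors holds FPKM. Every library's deposited values were whole multiples of 1 step for 99.9887% to 100% of entries (tolerance 0.0505), which gave whole reads.

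Genes at 10 or more in 3 or more libraries (29835) were fitted with limma 3.58.1 in R 4.3.3 (lmFit, eBayes with trend) on log2(normalized count + 1). The model had a mean for each group and used all 12 libraries, and p-values were adjusted by Benjamini-Hochberg. Fold changes are on that scale and understate low genes. Standard errors use limma's moderated variance. Alternatives were edgeR 4.0.16 and DESeq2 1.42.0 on recovered reads, upper-quartile scaling, FPKM + 0.1, a pseudocount of 10, no filter, fewer libraries, a replicate block and subtraction of receptor background. The code was tested on simulated data. Counting intervals and floors cover counting error only. Gene models are from GENCODE M21, matched for 98.5% of genes, and 50-base stretches were compared over its transcripts. Members, gene lists and tests were chosen with earlier results of these data known. Named genes were the 3 with the highest mean FPKM per class, those called in a RasV12 comparison, the 5 with the smallest p in the other comparisons and the 4 with the smallest p per list, and other genes were named after their values were seen. One gene of the S phase list is counted but not reported here by name.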

Additional observations from a re-analysis of the deposited data

How the results depend on the processing

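The 17 calls of the named histone genes kept their sign under every alternative that was run. Of the 83 other results of these genes, 32 changed sign in at least 1 alternative, none past the threshold. Among those printed above, Hist1h2ac in RasV12 GFP+ against Control GFP+ cells came to 0.25 without RasV12 GFP+ replicate 2, and Hist1h2bc in RasV12 CD11b+ against Control CD11b+ cells to −0.04 with edgeR. In RasV12 GFP+ against Control GFP+ cells the 2 calls became 1 with a pseudocount of 10 (lower), 0 without the filter, 4 with the libraries of the compared groups alone, 1 with background subtraction and 0 with edgeR, and 0 to 3 when each library was left out in turn. In RasV12 CD11b+ against Control CD11b+ cells the 0 calls became 1 with background subtraction and 0 to 1 with each library left out. For CD11b+ against GFP+ cells in tumors the 7 calls became 4 without the filter, 4 with edgeR, 1 without the low-depth RasV12 CD11b+ replicates 1 and 2, and 4 to 9 with each library left out, 4 of them without RasV12 GFP+ replicate 3 or RasV12 CD11b+ replicate 2. In controls the 8 calls became 5 with edgeR and 5 to 10 with each library left out, 5 without Control GFP+ replicate 1 or 2. For the difference of the RasV12 effects the 0 calls became 1 with background subtraction, 1 with DESeq2 and 0 to 1 with each library left out. The cause of these changes was not tested. Over all genes, the median for CD11b+ against GFP+ cells in tumors was 1.79 on the log2 scale, 1.19 with upper-quartile scaling and −0.47 with background subtraction. Libraries with the same number did not deviate together (correlations of −0.0289 to 0.0897). With the replicate block the counts were 1, 0, 5, 6 and 0 in the 5 comparisons, in the order above. A fit of the compared groups alone was not possible for the difference of effects, which needs all 4. The depth of RasV12 CD11b+ replicates 1 and 2 limits low genes most, at 4.46 and 5.54 normalized counts per read. Over all genes, the recovered reads gave 1122, 434, 4692, 4613 and 1013 calls by edgeR and 4907, 2403, 12439, 10850 and 3135 by DESeq2 in the same order of comparisons.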
